A study of Mus musculus with 6 samples.

Results

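The genes described here are the chromatin remodelling and histone modification genes that the RNA-seq of Nipbl+/- mouse embryonic fibroblasts (MEFs) measured. They were chosen by symbol from families of histone demethylases, deacetylases, acetyltransferases and methyltransferases, ATP-dependent remodellers, DNA methylation enzymes and reader proteins, with 2 symbols left out of the rule. The choice gave 84 genes of 38483 in all, with 83 symbols, since Hdac4 has 2 rows. All 84 lie on the minus strand, because the 19214 plus-strand genes were listed at 0 in every culture. Those include 71 further genes whose symbols match, such as the many family members not named below, and nothing can be said here about them.

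DNA is wrapped around histones, and the enzymes of these families open, close or mark that packaging. Remodellers of the SWI/SNF, ISWI and CHD families use ATP to slide or evict nucleosomes. Writers add acetyl or methyl groups to histones, erasers remove them, and readers with a bromodomain, a PHD finger or a chromodomain bind the marked histones. Polycomb proteins keep developmental genes silent, and the DNA methyltransferase Dnmt1 copies the DNA methylation pattern after replication. Nipbl loads cohesin, the ring complex that holds and loops chromatin, and mutation of its human counterpart causes Cornelia de Lange syndrome.

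Each genotype had 3 cultures, WT and Nipbl+/-, and the mutant carries a heterozygous knockout of Nipbl. The labels give the strain as CD1 for all cultures. MEFs came from embryos of a single pregnant mouse at mid-gestation, with the limbs, brain and internal organs removed, were grown in DMEM with 10% fetal bovine serum, and were used at passage 3. The sources call the cultures biological replicates but do not say that each came from a separate embryo, so p-values measure the spread between these cultures. Counts per culture lay between 20307454 and 25990783, and the chromatin genes took between 0.578% and 0.681% of them. Of the fibroblast markers on the minus strand, 4 were tested, with a summed level of 15174 to 17963 CPM (counts scaled to a common library size) in WT and 16981 to 18902 CPM in Nipbl+/- cultures, nearly all of it Fn1. None of the 4 passed the adjusted threshold, with log2 fold changes of -0.30 for Prrx1 (adjusted p = 0.0661, lower without overlap), -0.50 for Col6a1 and 0.64 for Fap (adjusted p = 0.181, higher without overlap). The 2 tested endothelial markers came with the rest of their list to between 11.4 and 16.4 CPM in any culture. WT replicates 1 and 2 and Nipbl+/- replicate 3 had high Ddx3y, a Y-linked gene, and the other cultures high Xist, the RNA of the inactive X chromosome, so the sexes were not balanced between genotypes.

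The targeted gene was checked first. Nipbl was at 128, 145 and 135 CPM in WT replicates 1, 2 and 3 and at 101, 101 and 100.3 CPM in the Nipbl+/- replicates. The genotypes did not overlap, and Nipbl fell by 0.43 on the log2 scale (SE 0.06, adjusted p = 0.0213, quasi-likelihood test of edgeR, p adjusted by Benjamini-Hochberg across all tested genes). The call was lost without WT replicate 1 (adjusted p = 0.0755), without Nipbl+/- replicate 1 (0.0864) and without Nipbl+/- replicate 2 (0.0772), while the log2 fold change stayed between -0.47 and -0.39.

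To ask how chromatin genes differed between genotypes, all 9061 genes with enough counts were tested, 81 of the 84 among them. Only small differences were seen. The histone demethylase gene Phf2 and the remodeller gene Chd3 rose in Nipbl+/- MEFs, each by 0.30 on the log2 scale, and no chromatin gene fell past the threshold of 0.05 on the adjusted p-value. Among all tested genes, 1.04% were called higher and 0.916% lower, so 2 of 81 is near the background. DESeq2 called 6 chromatin genes higher and 1 lower, against 2.62% and 2.34% of all tested genes, and edgeR's exact test called 3 higher and 1 lower, against 2.42% and 2.35%. Over the 81 genes, the log2 fold change ranged from -0.35 for Hdac4 to 0.69 for Phf19. None reached a 2-fold difference, against 1.77% of all tested genes, and 39 differed by less than 0.1 on the log2 scale.

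Without a threshold, more of these genes lay higher than lower in Nipbl+/- MEFs. The log2 fold change was above 0 for 56 of 81 genes (69.1%), with a median of 0.07, against 48.4% and a median of -0.01 over all tested genes. Scaled by library size alone, the shares were 75.3% and 58.2%. An unadjusted p under 0.05 was reached by 19 genes in the higher direction (23.5%) and by 1 in the lower, against 8.98% and 7.95% of all tested genes. In 27 genes (33.3%) every Nipbl+/- culture lay above every WT culture in CPM, in 3 rows (3.7%), which are both Hdac4 rows and Ezh1, every Nipbl+/- culture lay below, and in 51 the genotypes overlapped. Over all tested genes, these shares in CPM were 12.0% higher and 10.8% lower. With library size alone, 28 chromatin genes lay above and 1 below, and no such share of all tested genes is given for that scaling. The share higher over all tested genes ran from 5.70% to 15.8% across 6 classes of expression level. Genes of a shared pathway do not vary independently, and these counts are a description without a test.

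Summed over the chromatin genes, the level was 5962, 6155 and 6153 CPM in WT replicates 1 to 3 and 6403, 6527 and 6605 CPM in the Nipbl+/- replicates. All Nipbl+/- cultures lay above all WT cultures. The median gene was 0.05, 0.08 and 0.10 above its WT mean on the log2 scale in Nipbl+/- replicates 1, 2 and 3, and between -0.02 and 0.02 from it in the WT replicates. Within the cultures with high Xist, 1 WT and 2 Nipbl+/-, the median difference was 0.05, with 50 of 81 genes above 0. Within those with high Ddx3y, 2 WT and 1 Nipbl+/-, it was 0.10, with 57 of 81 above 0. Over all tested genes, the median was 0.0 in both groups. Single cultures also varied, with 34, 38 and 50 of 81 genes above their WT mean in WT replicates 1 to 3. In Nipbl+/- replicates 1 to 3, these were 56, 55 and 56.

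**Figure D1:**
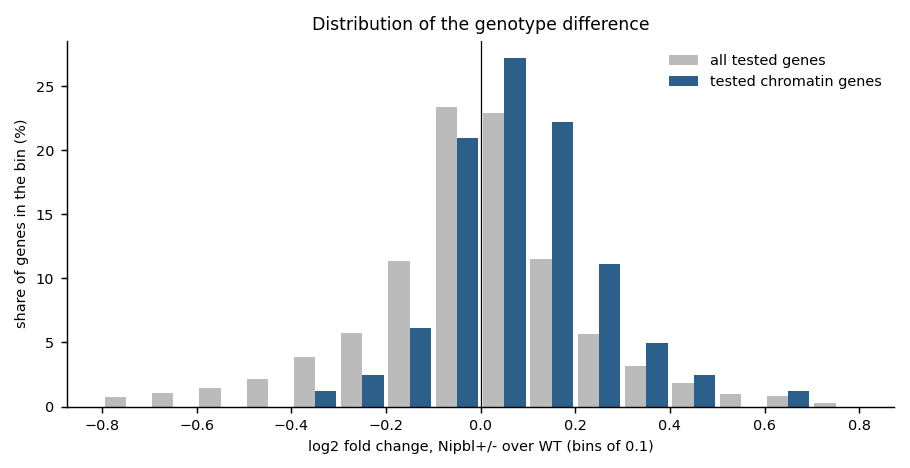
Share of genes (%) in each bin of 0.1 of log2 fold change, Nipbl+/- over WT, for all 9061 tested genes (grey) and the 81 tested chromatin genes (blue). The bars of the chromatin genes exceed the grey bars from 0 to 0.5, with 22.2% against 11.5% between 0.1 and 0.2, and 295 of all tested genes, none of them a chromatin gene, lie beyond 0.8 in either direction.

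The summed levels of proliferation genes and macrophage markers were also higher in Nipbl+/- cultures, and their values are given here. Of 19 tested proliferation genes, 8 rose (Cdk1, Top2a, Mcm6, Bub1, Ccna2, Mcm7, Mki67 and Ccnb2), 17 lay higher without overlap, and the median log2 fold change was 0.38. Over all tested genes, 1.04% were called higher and 12.0% lay higher without overlap. Their summed level was 1306, 1413 and 1384 CPM in WT and 1699, 1694 and 1919.6 CPM in Nipbl+/- replicates 1 to 3. The 11 tested macrophage markers had a median log2 fold change of 0.94, and none passed the adjusted threshold. An unadjusted p under 0.05 in the higher direction was reached by 9, against 8.98% of all tested genes. In 6 the Nipbl+/- cultures lay higher without overlap and 5 overlapped, among them Cd53 with a log2 fold change of -0.19. Lyz2 alone was at 33.4 to 45.3 CPM in WT and 52.9 to 112 CPM in Nipbl+/- cultures. The list summed to 91.5, 72.5 and 76.0 CPM in WT and to 129, 201 and 104 CPM in Nipbl+/- replicates 1 to 3. For both lists, every Nipbl+/- culture lay above every WT culture. In a bulk culture, more cells of a kind and more RNA per cell cannot be told apart, and the part of either list in the chromatin gene values was not tested.

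**Figure D2:**
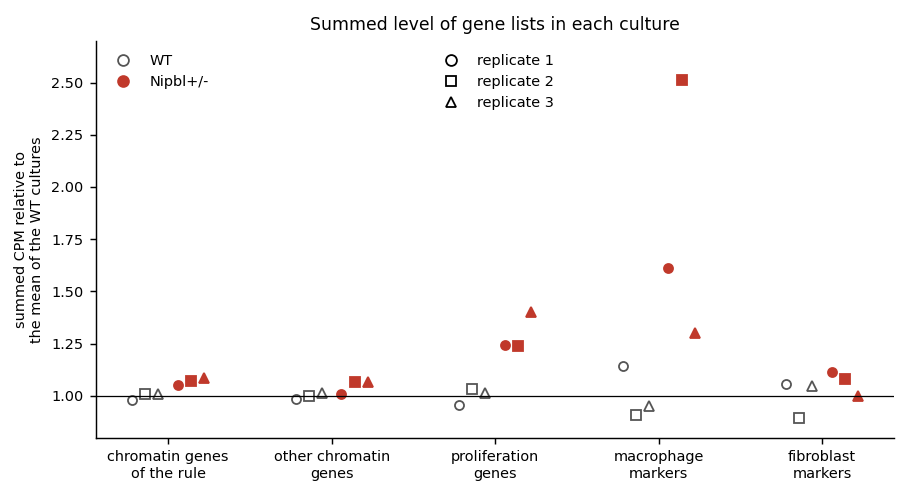
Summed CPM of each gene list in each culture, divided by the mean of the 3 WT cultures. Open grey symbols are WT, filled red symbols Nipbl+/-, and the shape gives the replicate. The chromatin genes sit close to the WT mean in all cultures, with the 3 Nipbl+/- cultures above it, while the proliferation genes (1694 to 1919.6 CPM against 1306 to 1413) and macrophage markers (104 to 201 CPM against 72.5 to 91.5) lie further apart.

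Levels per length are given in the deposited RPKM, which divides a count by the gene's length and the library total and is the scale on which different genes can be compared. The median chromatin gene was at 8.11 RPKM in WT, against 7.71 RPKM over all tested genes. In WT, 76 of the 81 genes were at 1 RPKM or more and 35 at 10 RPKM or more. Chd3 was the highest, at 56.1 ± 3.27 RPKM in WT (SD, n = 3). Hdac1 at 40.8 ± 1.76, Smarca5 at 40.8 ± 2.37, Prmt1 at 36.6 ± 2.30, Cbx5 at 35 ± 2.30 and Brd2 at 34.2 ± 1.09 RPKM followed, and for neighbours among these 5 genes the ranges of mean ± SD overlapped. Under 1 RPKM in WT were Phf19, Phf15, Tet1, Cbx7 and Arid3b, the last at 0.165 ± 0.0414 RPKM. Replicates were close for most of these genes, with a median coefficient of variation of CPM of 5.18% in WT and 4.36% in Nipbl+/- cultures, against 8.0% and 7.19% over all tested genes.

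**Figure D3:**
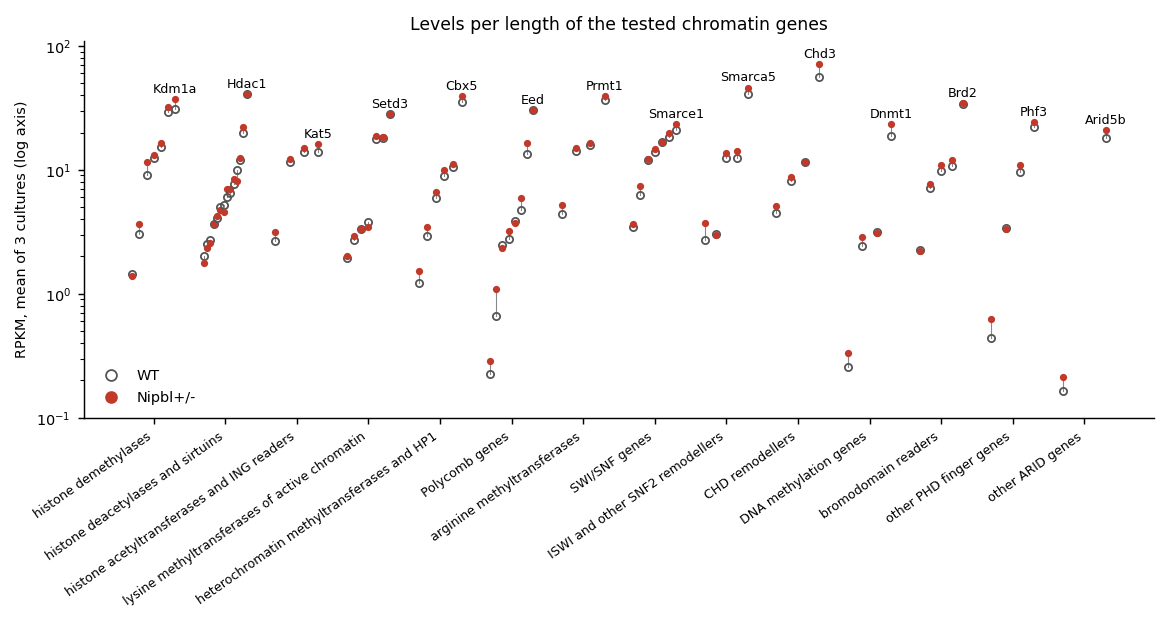
Mean RPKM over 3 cultures (log axis) of each tested chromatin gene, by role, in WT (open grey) and Nipbl+/- (filled red) MEFs, joined by a line for each gene. The gene named in each role has its highest level, from Kat5 at 13.9 RPKM in WT to Chd3 at 56.1 RPKM, and nearly all pairs of points lie close together.

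Phf2 was the called histone demethylase. These enzymes remove methyl groups from histone lysines, and 7 of the 8 in the rule were tested. Phf2 (ENSMUSG00000038025, chr13:48801750-48870885, mm10), a demethylase with a PHD finger and a Jumonji domain, was at 53.0, 49.3 and 49.4 CPM in WT and at 62.6, 62.1 and 61.5 CPM in Nipbl+/- replicates 1 to 3. The genotypes did not overlap, with a log2 fold change of 0.30 (SE 0.05, adjusted p = 0.0320). When cultures were left out in turn, the call held only without WT replicate 2, and the adjusted p lay between 0.0758 and 0.115 in the other 5 fits. DESeq2 and edgeR's exact test also called it, and with the Xist level as a covariate the call was lost (adjusted p = 0.0554).

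Kdm2b, which brings a Polycomb complex to CpG islands, was at 38.2, 36.0 and 39.1 CPM in WT and 43.5, 43.7 and 45.4 CPM in Nipbl+/- cultures. Kdm1a (LSD1), the demethylase of the CoREST corepressor complex and the highest of this role per length at 31.2 ± 1.65 RPKM in WT (SD, n = 3), was at 163, 173 and 173 CPM against 189, 194 and 204 CPM. Neither overlapped between genotypes, and neither passed the threshold (log2 fold changes 0.23 and 0.20, adjusted p = 0.0880 and 0.0969), though DESeq2 called Kdm1a (adjusted p = 0.0409). Kdm4a, Kdm3a, Kdm2a and Kdm6b overlapped, with log2 fold changes from -0.08 for Kdm6b to 0.09 for Kdm4a. Kdm6b, which lies beside Chd3 on chromosome 11, was at 10.3, 10.7 and 10.4 CPM in WT and 10.6, 8.60 and 10.6 CPM in Nipbl+/- cultures.

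Chd3, a CHD remodeller, was the other called gene. The gene (ENSMUSG00000018474, chr11:69343273-69369406) encodes an ATPase of the NuRD complex, which couples remodelling to histone deacetylation. It was at 474, 530.1 and 489 CPM in WT and 621, 618 and 604 CPM in Nipbl+/- replicates 1 to 3. Every Nipbl+/- culture lay above WT, with a log2 fold change of 0.30 (SE 0.05, adjusted p = 0.0323). As for Phf2, the call held without WT replicate 2 and was lost when any of the other 5 cultures was left out, with an adjusted p from 0.0712 to 0.12. Chd6 was at 85.1, 91.8 and 92.6 CPM in WT and 95.8, 97.0 and 106 CPM in Nipbl+/- cultures, without overlap (log2 fold change 0.15, adjusted p = 0.267). Chd8 and Chd2 overlapped, at 0.07 and -0.06 on the log2 scale, so the 4 tested genes of this role did not share a direction.

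**Figure D4:**
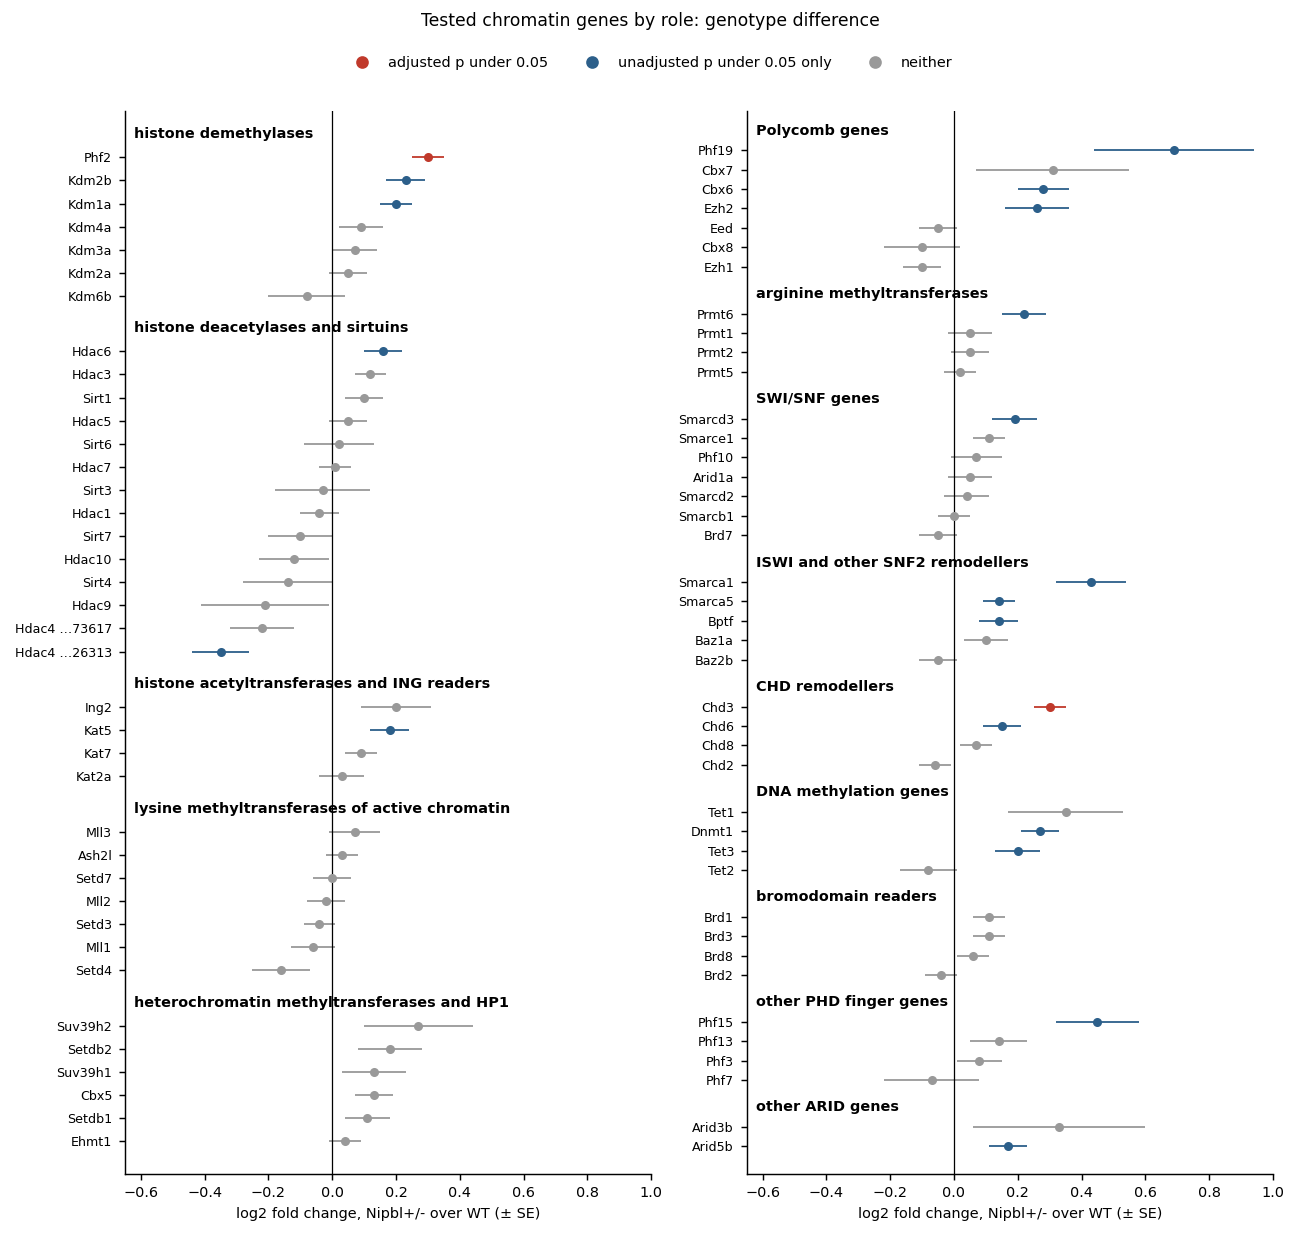
Log2 fold change, Nipbl+/- over WT, with its SE for 79 of the 81 tested chromatin genes, grouped by role. Red marks the 2 genes with an adjusted p under 0.05 (Phf2 and Chd3), blue those with an unadjusted p under 0.05 only, and grey the rest. Of the points, 55 lie right of 0 and 24 left of it, 5 and 8 of the latter among the lysine methyltransferases of active chromatin and the deacetylases, or 3 and 7 with library size alone. The 2 Hdac4 rows are told apart by the last digits of their identifiers.

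ISWI and related SNF2 remodellers space nucleosomes. Smarca1 (SNF2L, chrX:47809368-47892974) was at 18.5, 15.0 and 18.3 CPM in WT and 22.0, 25.4 and 22.2 CPM in Nipbl+/- cultures, without overlap. Its log2 fold change was 0.43 (SE 0.11, adjusted p = 0.0837), and it passed the threshold with DESeq2 (adjusted p = 0.0237) and with edgeR's exact test (0.0249). The related ATPase gene Smarca5 (SNF2H) was at 319, 337 and 343 CPM in WT and 346, 377 and 374 CPM in Nipbl+/- cultures. Bptf, a subunit of the remodelling factor NURF, was at 183, 178 and 184 CPM against 188, 199 and 215 CPM. Both lay higher without overlap, each by 0.14 on the log2 scale, and both missed the threshold (adjusted p = 0.261 and 0.277). Baz1a and Baz2b overlapped between genotypes.

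DNA methylation genes followed. Dnmt1 (chr9:20907206-20959888) was at 123, 121 and 132 CPM in WT and 147, 147 and 159 CPM in Nipbl+/- replicates 1 to 3. The genotypes did not overlap, and the log2 fold change was 0.27 (SE 0.06, adjusted p = 0.0626, past the threshold with DESeq2 at 0.00722). Of the Tet enzymes, which oxidise methylated cytosine, Tet3 was at 26.3, 29.5 and 28.7 CPM in WT and 31.7, 31.7 and 33.8 CPM in Nipbl+/- cultures (log2 fold change 0.20, adjusted p = 0.190). Tet1, at 3.09, 4.72 and 3.99 CPM against 4.92, 5.20 and 4.87 CPM, rested on 68 to 136 counts a culture (log2 fold change 0.35, adjusted p = 0.370). Tet2 overlapped, at -0.08. The 3 genes other than Tet2 lay higher without overlap, against 12.0% of all tested genes, and none of the 4 passed the adjusted threshold.

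Of 8 Polycomb genes, 5 had a log2 fold change above 0, with a median of 0.22, against 48.4% and -0.01 over all tested genes. An unadjusted p under 0.05 was reached by 3, all higher, against 8.98% of all tested genes. None passed the adjusted threshold. Ezh2, the main methyltransferase of the complex PRC2 in dividing cells, was at 33.0, 33.7 and 26.4 CPM in WT and 37.2, 38.8 and 35.6 CPM in Nipbl+/- replicates (log2 fold change 0.26, adjusted p = 0.226). Its paralogue Ezh1, used more in resting cells, was at 30.0, 29.7 and 30.2 CPM against 27.2, 28.5 and 28.5 CPM (log2 fold change -0.10, adjusted p = 0.464). Neither overlapped between genotypes in CPM, and their log2 fold changes had opposite signs. In RPKM, Ezh1 did overlap, at 3.78, 3.76 and 3.97 in WT and 3.55, 3.73 and 3.82 in Nipbl+/- cultures. With library size alone, the log2 fold change of Ezh1 was -0.06. The ratio of Ezh2 to Ezh1 in RPKM, a pair chosen after the values were seen, was 1.32, 1.36 and 1.05 in WT and 1.64, 1.63 and 1.5 in Nipbl+/- cultures. Eed, the PRC2 subunit that binds the methyl mark, had the highest level of the role per length (30.6 ± 1.68 RPKM in WT, SD, n = 3) and overlapped between genotypes, with a log2 fold change of -0.05.

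Phf19, a PRC2 accessory protein, had the largest log2 fold change of the 81 genes, 0.69 (SE 0.25, adjusted p = 0.224). It was at 3.04, 2.45 and 4.92 CPM in WT and 5.41, 4.93 and 6.45 CPM in Nipbl+/- cultures, on 55 to 135 counts a culture. WT replicate 3 nearly met the lowest Nipbl+/- culture, and without single cultures the log2 fold change ran from 0.49 to 1.02. Cbx6, a chromodomain subunit of PRC1, was at 90.7, 79.4 and 92.8 CPM against 104, 98.8 and 116 CPM (log2 fold change 0.28, adjusted p = 0.126, past the threshold with DESeq2 at 0.0444). Cbx7 and Cbx8 overlapped.

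Histone deacetylases and sirtuins, which remove acetyl groups, were the largest role with 14 tested rows and were split in direction, with 6 above and 8 below 0 and a median of -0.03, or 7 and 7 with library size alone. Hdac4, which shuttles between nucleus and cytoplasm and is known for holding back muscle and cartilage programmes, was the lowest. Its main row (ENSMUSG00000026313, chr1:91932757-92148393) was at 42.7, 40.0 and 40.6 CPM in WT and 32.5, 28.5 and 36.0 CPM in Nipbl+/- replicates 1 to 3, and its second row (ENSMUSG00000073617, chr1:91928785-91931176) at 14.2, 11.9 and 13.1 CPM against 10.8, 11 and 11.7 CPM. Both rows lay lower without overlap in CPM, with log2 fold changes of -0.35 (SE 0.09, adjusted p = 0.0891) and -0.22 (SE 0.10, adjusted p = 0.318). In RPKM, the main row still did not overlap. The second row did, at 5.58, 4.67 and 5.35 RPKM in WT and 4.39, 4.49 and 4.89 RPKM in Nipbl+/- cultures. The GENCODE M21 annotation has a single Hdac4 gene whose exon at chr1:91928779-91933386 covers the second row, so the rows are not independent of each other. The main row passed the threshold with DESeq2 (adjusted p = 0.0280) and with the exact test (0.0381). In GENCODE M21, a plus-strand gene, Gm26720, covers 22.4% of the exonic length of this Hdac4 gene. Its overlap with the main row as counted was not measured. The library kit does not mark strand, so reads there cannot be assigned to either gene by strand. The strand setting of the counting is not given in the sources.

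Hdac1, the deacetylase of several corepressor complexes, was at 146, 157 and 141 CPM in WT and 142, 145 and 144 CPM in Nipbl+/- cultures, which overlapped (log2 fold change -0.04, adjusted p = 0.767). Hdac6, an X-linked gene whose product deacetylates tubulin in the cytoplasm, was at 36.6, 35.3 and 39.6 CPM against 40.2, 42.1 and 42.5 CPM (log2 fold change 0.16, adjusted p = 0.248). Hdac3, the deacetylase of the NCoR complexes, also lay higher without overlap, at 0.12 on the log2 scale. The remaining 9 rows of this role, the sirtuins among them, overlapped, with log2 fold changes from -0.21 for Hdac9 to 0.10 for Sirt1.

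Of 4 histone acetyltransferases and ING readers, 3 lay higher without overlap, against 12.0% of all tested genes, and none passed the adjusted threshold. Kat5 (Tip60), the catalytic subunit of an acetyltransferase complex active in DNA repair, was at 28.5, 29.5 and 29.7 CPM in WT and 32.4, 33.5 and 33.7 CPM in Nipbl+/- cultures (log2 fold change 0.18, adjusted p = 0.162). The plus-strand gene Rnaseh2c covers 12.1% of its exonic length. Kat7 and Ing2 were at 0.09 and 0.20 on the log2 scale with adjusted p = 0.402 and 0.413, and Kat2a overlapped at 0.03.

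Lysine methyltransferases of active chromatin, with Ash2l that assists them, all overlapped between genotypes, as did 6994 of the 9061 tested genes. Of the 7, 2 lay above 0 and 5 below, with a median of -0.02, while with library size alone 4 lay above 0 and the median was 0.02. Setd3, the highest per length at 28.3 ± 0.535 RPKM in WT (SD, n = 3) and better known as an actin methyltransferase, was at 181, 179.8 and 179 CPM in WT and 174, 182 and 168 CPM in Nipbl+/- cultures. The log2 fold changes of Mll1, Mll2 and Mll3, the large methyltransferases of histone H3 named Kmt2a, Kmt2d and Kmt2c in GENCODE M21, were -0.06, -0.02 and 0.07. Setd4 had the smallest p of the role, at 16.7, 20.3 and 18.9 CPM against 16.7, 16.1 and 17.2 CPM (log2 fold change -0.16, adjusted p = 0.436).

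Heterochromatin methyltransferases and the HP1 gene Cbx5 all had log2 fold changes above 0, from 0.04 for Ehmt1 to 0.27 for Suv39h2. Over all tested genes, 48.4% lay above 0. All 6 overlapped between genotypes, as did 6994 of the 9061 tested genes. Cbx5, which binds the heterochromatic methyl mark, was at 313, 356 and 325 CPM in WT and 354, 353 and 379 CPM in Nipbl+/- cultures, so WT replicate 2 lay among the mutants (log2 fold change 0.13, adjusted p = 0.333). The X-linked gene Suv39h1 was at 31.1, 34.4 and 32.1 CPM against 32.0, 33.1 and 41.6 CPM, with Nipbl+/- replicate 3 apart from the rest. The adjusted p was 0.592. Together with Smarca1 and Hdac6 it is the third X-linked gene of the rule, and none of these was highest in just the cultures with high Xist.

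Arginine methyltransferases, SWI/SNF subunits and bromodomain readers had no gene past the adjusted threshold. Of their tested genes, 1 of 4, 2 of 7 and 2 of 5 lay higher without overlap, against 12.0% of all tested genes. Prmt6 was at 18.6, 19.9 and 19.0 CPM in WT and 21.4, 22.1 and 23.5 CPM in Nipbl+/- cultures, without overlap (log2 fold change 0.22, adjusted p = 0.183). Prmt1, which makes most of the arginine methylation of the cell, Prmt2 and Prmt5 overlapped, within 0.05 of 0 on the log2 scale. Among 7 SWI/SNF genes, Smarcd3 was at 31.7, 30.4 and 27.9 CPM against 35.6, 33.6 and 33.7 CPM (log2 fold change 0.19, adjusted p = 0.206), but 48.2% of its exonic length lies under plus-strand genes, Chpf2 among them, whose reads cannot be told apart from its own without strand. Such genes cover over 10% of the exonic length of 7 of the chromatin genes, among them Prmt6 (23.4%) and Suv39h1 (14.6%), and none of that of Chd3, Dnmt1 and Smarca1. Smarce1 lay higher without overlap, at 146, 145 and 148 CPM in WT and 149, 165 and 160.2 CPM in Nipbl+/- cultures (log2 fold change 0.11, adjusted p = 0.356). The core subunit gene Smarcb1 was at 97.9, 103 and 98.9 CPM against 97.8, 99.8 and 102 CPM, with overlapping genotypes.

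Of the bromodomain readers, which bind acetylated histones, Brd2 was the highest per length and overlapped, at 257, 265 and 262 CPM in WT and 262, 253 and 249.8 CPM in Nipbl+/- cultures. Its log2 fold change was -0.04, and 0.0022 with library size alone. Brd1 and Brd3 lay higher without overlap, each by 0.11 on the log2 scale (adjusted p = 0.334 and 0.342).

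Among the other PHD finger and ARID genes, Phf15 (Jade2 in GENCODE M21), a scaffold of acetyltransferase complexes, was at 5.44, 4.81 and 4.73 CPM in WT and 7.26, 6.50 and 6.68 CPM in Nipbl+/- cultures. The log2 fold change was 0.45 (SE 0.13, adjusted p = 0.123). Arid5b, a DNA-binding partner of Phf2, was at 79.5, 87.0 and 89.3 CPM against 97.5, 95.0 and 94.4 CPM, without overlap (log2 fold change 0.17, adjusted p = 0.183). Phf3, the highest PHD finger gene per length at 22.1 ± 1.41 RPKM in WT (SD, n = 3), overlapped. Arid3c, Kdm4d and Prmt8 were too low to test, with at most 5, 15 and 2 counts in any culture.

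**Figure D5:**
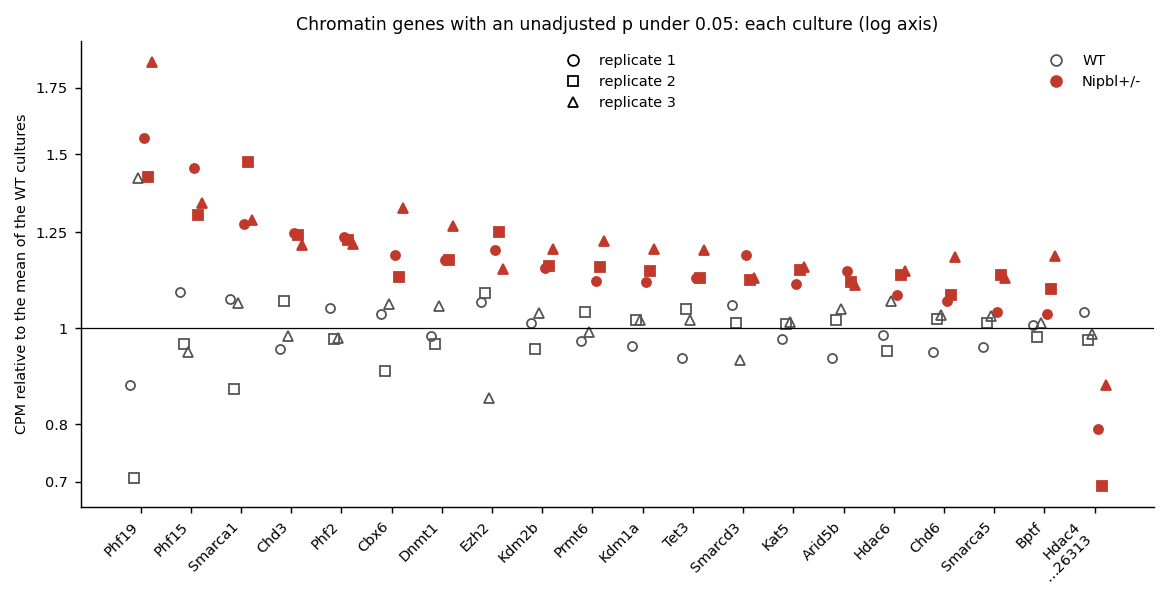
CPM of each culture divided by the mean of the WT cultures (log axis) for the 20 chromatin genes with an unadjusted p under 0.05, ordered by log2 fold change. Open grey symbols are WT, filled red symbols Nipbl+/-, and the shape gives the replicate. In 19 genes the red points all lie above the grey ones, in Phf19 by no more than from 4.92 to 4.93 CPM, and in the main Hdac4 row they lie below.

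The comparison was also read for chromatin genes outside the rule. Of 155 symbols listed from Polycomb, corepressor, SWI/SNF, INO80, SRCAP, acetyltransferase and methyltransferase complexes and histone chaperones, 64 lie on the minus strand and 62 were tested. None passed the adjusted threshold with edgeR's quasi-likelihood test, while 17 had an unadjusted p under 0.05, all higher in Nipbl+/- cultures, and the exact test called 1 and DESeq2 0. Without overlap, 21 lay higher (33.9%) and 1 lower, against 12.0% and 10.8% of all tested genes, and the median log2 fold change was 0.07. An unadjusted p under 0.05 in the higher direction was reached by 27.4% of them, against 8.98% of all tested genes. Summed over the 64 genes, the level was 5745, 5813 and 5904 CPM in WT replicates 1 to 3. In Nipbl+/- replicates 1 to 3 it was 5876, 6200.5 and 6221 CPM, so the summed levels overlapped between genotypes. The smallest p belonged to Rybp, a PRC1 subunit, at 48.6, 49.3 and 47.5 CPM in WT and 57.4, 58.5 and 55.6 CPM in Nipbl+/- cultures (log2 fold change 0.24, adjusted p = 0.0511). Nasp, a chaperone of histone H3 and H4 that dividing cells use, was at 69.4, 72 and 69.8 CPM against 79.1, 81.8 and 83.4 CPM (log2 fold change 0.21, adjusted p = 0.0579). The genes with the smallest p in the other lists were Sap30, Dpy30, Ncoa1 and Ruvbl2, with log2 fold changes of 0.40, 0.24, 0.23 and 0.15 and adjusted p of 0.0969, 0.141, 0.152 and 0.203. Each of these lay higher without overlap.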

How the data were processed

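Ribo-depleted total RNA of 3 WT and 3 Nipbl+/- MEF cultures was sequenced after the TruSeq RNA Sample Prep Kit, which does not mark strand. The authors aligned reads to mm10 with TopHat2 2.0.10, per the submitters' processing notes, and the Ensembl 72 annotation. The authors deposited a raw read count and an RPKM value for each gene. The counting tool and its strand setting are not given in the sources used here. Counts of replicates differed by more than sampling noise (chi-square per degree of freedom 10.2 to 34.6), so all 6 cultures entered as separate samples, and the number of cultures limits precision more than depth.

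Counts were filtered with filterByExpr (minimum count 10), scaled by TMM and compared in edgeR 4.0.16 (R 4.3.3) by its quasi-likelihood test, p-values being adjusted after Benjamini and Hochberg across all tested genes, with a threshold of 0.05. CPM values are TMM-scaled. RPKM values were used for levels only. The SE is the absolute log2 fold change over the square root of the F statistic. Alternatives were edgeR's exact test, DESeq2 1.42.0, other scalings and filters, a replicate block, Xist as a covariate and fits without each culture in turn. The steps were tested on simulated data. Overlaps with other genes were read from GENCODE M21, where 82 of the 84 identifiers were found.

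The members and lists were chosen with earlier results of these data known. Genes named are Nipbl, members past the threshold, in each role the highest per length and those with an unadjusted p under 0.05 or else the smallest p, the 5 largest increases and decreases without overlap and with an average log2 CPM above 0 (only 3 decreases met this), X-linked members, and in each further list the smallest p. Other members and the called proliferation genes, named in passing, were chosen after their values were seen. Single values of 2 tested members are not reported here. Lists of epithelial, muscle and neural markers were also written. None of their tested genes passed the threshold, and they summed to at most 15.8, 6.85 and 3.25 CPM in any culture.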

Additional observations from a re-analysis of the deposited data

How the results depend on the processing

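Results under other settings were counted for the single members named by the rule, with Nipbl left out of the count. Of these, 485 kept their direction and their side of the threshold, 8 passed it newly, 13 lost it and 4 changed sign, each to a value near 0. The sign changes were Brd2 with library size alone (0.0022), Hdac1 without WT replicate 2 (0.0047, with -0.08 as the lowest value over the cultures left out), Eed without Nipbl+/- replicate 3 (0.0022, lowest -0.09) and Suv39h1 without Nipbl+/- replicate 3 (-0.00041, highest 0.19). Chromatin genes called higher numbered 2 in the main test, 6 with DESeq2, 1 with the Xist level as a covariate (Chd3, with Phf2 at an adjusted p of 0.0554) and 0 with a replicate block, where Phf2 and Chd3 had adjusted p of 0.0575 and 0.0573. Genes called lower numbered 1 with DESeq2 and 1 with the exact test. Other chromatin genes called numbered 1 with the exact test, 1 with library size alone and 1 with CPM above 1 in 3 cultures. The median log2 fold change of the chromatin genes was 0.109 with library size alone, 0.05 within the cultures with high Xist and 0.10 within those with high Ddx3y, the last a pair of comparisons chosen after seeing the data. With library size alone, 1 gene in place of 3 lay lower without overlap. Leaving out each culture gave 0 to 2 genes called higher, 29 to 35 higher and 4 to 6 lower without overlap, which fewer cultures make easier to reach, a median of 0.061 to 0.092, and -0.47 to -0.39 for Nipbl, weaker in 3 of 6 fits. The cause of the other changes was not tested. The sources do not say that replicate numbers pair the cultures. Deviations from the genotype mean had correlations of -0.062, -0.036 and -0.142 between cultures of the same number. Each such pair joined a culture with high Xist to one with high Ddx3y, so these values cannot show that pairing was absent. The block changed no other call among Nipbl and the members named by the rule.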
